A study of Mus musculus with 24 samples.

Results

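The genes described here are 9 that are widely used as readouts of glucocorticoid signalling in mouse tissues: *Nr3c1*, *Fkbp5*, *Tsc22d3*, *Sgk1*, *Ddit4*, *Klf9*, *Zbtb16*, *Dusp1* and *Anxa1*. They were chosen by symbol, with earlier results of these data known. Each was found once among the 54752 genes of the expression table by its Ensembl identifier. All 9 passed the filter on low values, which asked for more than 1 TPM (a transcript's share of its library, corrected for transcript length) in at least 1 library and kept 12373 genes. The libraries were made from total bone marrow cells of the right pelvis and tibia, 1 library per mouse, with no sorting of cell types.

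All mice were males of the C57BL/6 line, 6 in each of 4 groups. FL-WT were wild-type mice that spent 31 days in space, and GC-WT were wild-type mice kept on the ground as controls. FL-KO and GC-KO were the corresponding flight and ground groups of Nrf2-KO mice, in which the gene for the transcription factor Nrf2 is knocked out. The mice were young adults housed singly, and the ground groups had the same cages, food and water. Marrow was taken after the flown mice had come back to the ground, so the values include landing and the time after it. Blood of the flown mice was handled in the United States and that of the ground mice in Japan. The flown and the ground mice could not be sampled at 1 site, and the time of day at which each marrow was collected is not given in the sources used here. Site, time of day and flight cannot be told apart.

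Glucocorticoids are steroid hormones of the adrenal cortex. They are released with a daily rhythm and under stress, enter cells freely and bind the glucocorticoid receptor, which is held ready by chaperones in the cytoplasm. The bound receptor moves to the nucleus, raises the transcription of genes near its response elements and restrains inflammatory genes. In bone marrow these hormones act on the release of neutrophils and are toxic to developing lymphocytes.

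The files give TPM and no read counts, so the depth of each library is unknown, and every column sums to the same total. Between 35.4% and 59.6% of all TPM in a library belonged to 5 small structural RNAs, which leaves a varying remainder for the other genes. The median over all 12373 genes was below 0 in every comparison, at -0.24 (log2 fold change) for flight in WT mice and -0.29 for flight in Nrf2-KO mice, and at -0.22 for genotype on the ground and -0.25 for genotype in flight. With those 5 RNAs taken out and the rest rescaled, these medians were still at -0.29, -0.19, -0.31 and -0.18. The main results are also given after median-of-ratios scaling, which divides every library by the median ratio of its genes to their typical level and brings these medians to between -0.02 and 0.05. *Nfe2l2*, the gene that encodes Nrf2, stood at 11.39 to 27.26 TPM in the WT libraries and at 2.22 to 7.18 TPM in the Nrf2-KO libraries, with no overlap. Defining markers of the marrow lineages were present: the summed level of 9 mature neutrophil markers was 24500 to 61900 TPM, and no marker of the 10 lists was at 0 in all libraries.

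The 9 genes spanned a wide range of levels. *Anxa1*, which encodes the phospholipid-binding protein annexin A1, was the most abundant, with a mean of 271 TPM over the 24 libraries (lowest 184.54, highest 375.76). *Tsc22d3*, which encodes the leucine zipper protein GILZ, followed at 33.6 TPM (16.11 to 54.9). *Dusp1*, a phosphatase that switches off MAP kinases, averaged 16.3 TPM, and the receptor gene *Nr3c1* averaged 14.8 TPM. *Fkbp5*, a co-chaperone that lowers the receptor's affinity for hormone, averaged 7.98 TPM. The kinase gene *Sgk1* (4.82 TPM) and *Ddit4* (4.77 TPM), whose product restrains the mTORC1 pathway, stood side by side. The transcription factor genes *Klf9* and *Zbtb16* were lowest, at 1.32 and 1.06 TPM, and exceeded 1 TPM in 17 and 12 of the 24 libraries. The ranges of *Dusp1* and *Nr3c1*, of *Sgk1* and *Ddit4*, and of *Klf9* and *Zbtb16* overlapped. Whether these neighbours differed within single mice was not tested.

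The genes also differed in how much mice of 1 group varied. The coefficient of variation within groups, averaged over the 4 groups, was 49.1% for *Ddit4*, 39.8% for *Dusp1*, 38.0% for *Fkbp5* and 36.0% for *Tsc22d3*, against a median of 20.8% over the 10421 genes that averaged 1 TPM or more. It was 15.9% for *Nr3c1*, 16.9% for *Anxa1* and 18.4% for *Sgk1*. Of those 10421 genes, 97.8% varied less than *Ddit4* and 9.7% varied less than *Nr3c1*.

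The first question was whether marrow cells of mice returned from space differed from those of ground controls in these genes. As deposited, only *Klf9* was called in FL-WT vs. GC-WT, at an adjusted p under 0.1 by limma on log2(TPM + 1) with Benjamini-Hochberg adjustment over all 12373 genes. *Klf9* levels were 0.98 to 2.1 TPM in GC-WT (median 1.84) and 0.83 to 1.71 TPM in FL-WT (median 1.07). The ranges overlapped, and the log2 fold change was -0.34 ± 0.12 (SE, n = 6 per group, adjusted p = 0.038). In FL-KO vs. GC-KO, *Klf9* was again lower, at 0.72 to 1.47 TPM (median 0.975) against 1.13 to 1.74 TPM (median 1.48), with a log2 fold change of -0.26 ± 0.12 (limma, adjusted p = 0.0806). *Sgk1* was the other gene called there, at 2.63 to 4.52 TPM (median 3.29) in FL-KO and 3.84 to 5.62 TPM (median 4.32) in GC-KO, with a log2 fold change of -0.30 ± 0.14 (limma, adjusted p = 0.0765). Both calls in Nrf2-KO mice were lost when single libraries were left out, with an adjusted p of up to 0.161 for *Klf9* and 0.19 for *Sgk1*. The count of 1 of 9 genes lower in FL-WT stands beside 39.0% of all genes, and 2 of 9 in FL-KO beside 53.1%, so neither share exceeded the background. None of the 9 was called higher (0.994% of all genes in WT, 0.299% in Nrf2-KO mice) and none reached a 2-fold change besides the threshold, which 1.0% and 2.13% of all genes did. The median log2 fold change of the 9 genes was -0.18 in WT and -0.25 in Nrf2-KO mice.

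After median-of-ratios scaling these flight calls were no longer made and others appeared. *Klf9* was at -0.14 (adjusted p = 0.519) in WT and -0.04 (adjusted p = 0.881) in Nrf2-KO mice, and *Sgk1* was at 0.04 (limma, adjusted p = 0.755) in Nrf2-KO mice. *Anxa1* was higher in flight in both genotypes, by 0.42 ± 0.08 in WT (adjusted p = 0.000852) and by 0.37 ± 0.08 in Nrf2-KO mice (limma, adjusted p = 0.00188), on the log2 scale. As deposited, the same gene stood at 229.53 to 324.79 TPM in GC-WT (median 289) and at 197.99 to 375.76 TPM in FL-WT (median 340), with a log2 fold change of 0.09, and its direction in Nrf2-KO mice was the opposite (-0.06). *Nr3c1* was higher in FL-KO by 0.21 ± 0.06 after scaling (limma, adjusted p = 0.0169), against -0.19 as deposited. With each library's trend with GC content and transcript length removed instead, *Anxa1* was still called in WT (0.25, limma, adjusted p = 0.0445). In Nrf2-KO mice neither gene was then called, with *Anxa1* at 0.12 (adjusted p = 0.37) and *Nr3c1* at 0.11 (limma, adjusted p = 0.194). The scaled background was 17.4% lower and 15.6% higher of all genes in WT, and 22.2% lower and 17.2% higher in Nrf2-KO mice. Beside *Anxa1*, the summed level of the markers of neutrophils, which are rich in annexin A1, was 24500 to 48800 TPM in GC-WT and 39200 to 54500 TPM in FL-WT, and its part in the difference was not tested. In a bulk sample, fewer cells of a type and less RNA per cell cannot be told apart.

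*Tsc22d3*, *Fkbp5*, *Ddit4*, *Dusp1* and *Zbtb16* were not called between flight and ground in either genotype, under either scaling, in the fit without mouse numbers. With the number as a replicate block and TPM as deposited, *Ddit4* was called lower in both genotypes. *Tsc22d3* was then called lower and *Dusp1* higher in WT, and *Fkbp5* and *Zbtb16* lower in Nrf2-KO mice. With the block and scaling together none was called lower, and *Dusp1* was higher in both genotypes. *Tsc22d3* was at 21.16 to 47.6 TPM (median 39.6) in GC-WT and 25.44 to 54.9 TPM (median 27.2) in FL-WT, a log2 fold change of -0.28 with a 95% interval of -0.81 to 0.26. *Dusp1* was at 9.5 to 19.67 TPM (median 13.1) in GC-WT and 13.57 to 23.09 TPM (median 14.9) in FL-WT, a log2 fold change of 0.27 with a 95% interval of -0.28 to 0.83. *Ddit4* was at 2.91 to 7.74 TPM (median 5.34) in GC-WT and 2.02 to 6.7 TPM (median 3.04) in FL-WT, a log2 fold change of -0.50 with a 95% interval of -1.13 to 0.12. For all 3 genes the groups overlapped. *Zbtb16* was at 0.91 to 1.54 TPM (median 1.32) in GC-WT and 0.73 to 1.91 TPM (median 0.935) in FL-WT, a log2 fold change of -0.12 with a 95% interval of -0.37 to 0.14. In Nrf2-KO mice it was at 0.71 to 1.33 TPM (median 1.1) in GC-KO and 0.37 to 1.09 TPM (median 0.75) in FL-KO. These groups overlapped too. The log2 fold change there was -0.25 (limma, adjusted p = 0.108), and leaving out any 1 of 5 libraries made it a call (adjusted p down to 0.0769).

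The second question was whether the absence of Nrf2 changed these genes. As deposited, the largest differences among the 9 genes were in *Fkbp5*, which was at 6.04 to 14.75 TPM in GC-WT (median 11.8) and at 4.31 to 9.35 TPM in GC-KO (median 5.97). In flight it was at 5.31 to 17.79 TPM in FL-WT (median 9.21) and at 2.46 to 7.99 TPM in FL-KO (median 4.87). The groups overlapped in both settings, but the KO median was below the lowest WT mouse each time. The log2 fold change was -0.70 ± 0.25 on the ground (adjusted p = 0.0291) and -0.85 ± 0.25 in flight (limma, adjusted p = 0.00755). After median-of-ratios scaling it was -0.38 ± 0.33 (adjusted p = 0.352) and -0.46 ± 0.33 (limma, adjusted p = 0.229), so the call rested on the scaling.

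*Sgk1*, a kinase that regulates ion channels and cell survival, was at 5.2 to 6.92 TPM in GC-WT (median 5.92) and at 3.84 to 5.62 TPM in GC-KO (median 4.32). The groups overlapped little, and the log2 fold change was -0.36 ± 0.14 (limma, adjusted p = 0.0382). In flight it was at 3.33 to 7.22 TPM in FL-WT (median 5.62) and 2.63 to 4.52 TPM in FL-KO, with a log2 fold change of -0.49 ± 0.14 (limma, adjusted p = 0.00478). *Zbtb16*, which encodes the zinc finger protein PLZF, was called only in flight, at 0.73 to 1.91 TPM in FL-WT (median 0.935) and 0.37 to 1.09 TPM in FL-KO (median 0.75), with a log2 fold change of -0.29 ± 0.13 (limma, adjusted p = 0.0694). Left out singly, FL-WT mice 03 and 07 and FL-KO mice 09 and 12 each ended the *Zbtb16* call (adjusted p up to 0.215). The *Sgk1* and *Zbtb16* calls were not made after scaling either. After removal of each library's trend with GC content and transcript length, *Zbtb16* was called in the opposite direction in both settings, at 0.45 on the ground (adjusted p = 0.0255) and 0.44 in flight (limma, adjusted p = 0.0253).

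On the ground 2 of 9 genes were lower in Nrf2-KO mice and in flight 3 of 9, beside 42.9% and 47.2% of all genes. None was higher, beside 3.13% and 1.91%, and none was a 2-fold change past the threshold, beside 3.17% and 8.45%. After scaling none was lower (28.0% and 30.7% of all genes), and the genes called higher (29.7% and 36.0%) were *Nr3c1* in both settings and *Anxa1* on the ground. *Nr3c1* was higher in GC-KO by 0.17 ± 0.06 (adjusted p = 0.0348) and in FL-KO by 0.26 ± 0.06 (limma, adjusted p = 0.00152) after scaling, whereas its deposited TPM gave -0.17 in both. Its levels were 13.53 to 18.73 TPM in GC-WT, 9.6 to 19.12 in FL-WT, 12.93 to 18.55 in GC-KO and 11.11 to 16.08 in FL-KO, all overlapping. The median log2 fold change of the 9 genes was -0.16 on the ground and -0.17 in flight, beside -0.22 and -0.25 for all genes.

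Whether the flight difference depended on Nrf2 was tested as the interaction of flight and genotype. No member was called (limma, adjusted p = 1 for all 9) and 0 had an unadjusted p under 0.05, while over all genes 0.0162% were called. The estimates ran from -0.15 for *Anxa1* to 0.17 for *Ddit4*, and the 95% interval for *Fkbp5* was -0.88 to 0.59. The rank sums of 6 mice against 6 were also permuted exactly (two-sided) for the 9 genes in 4 comparisons. Of these 36 tests, 7 had a p under 0.05 and 0 had an adjusted p under 0.1. The smallest exact p was 0.00866, for *Sgk1* in GC-KO vs. GC-WT, where a KO mouse was higher in 2 of 36 pairs of mice.

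**Figure D1:**
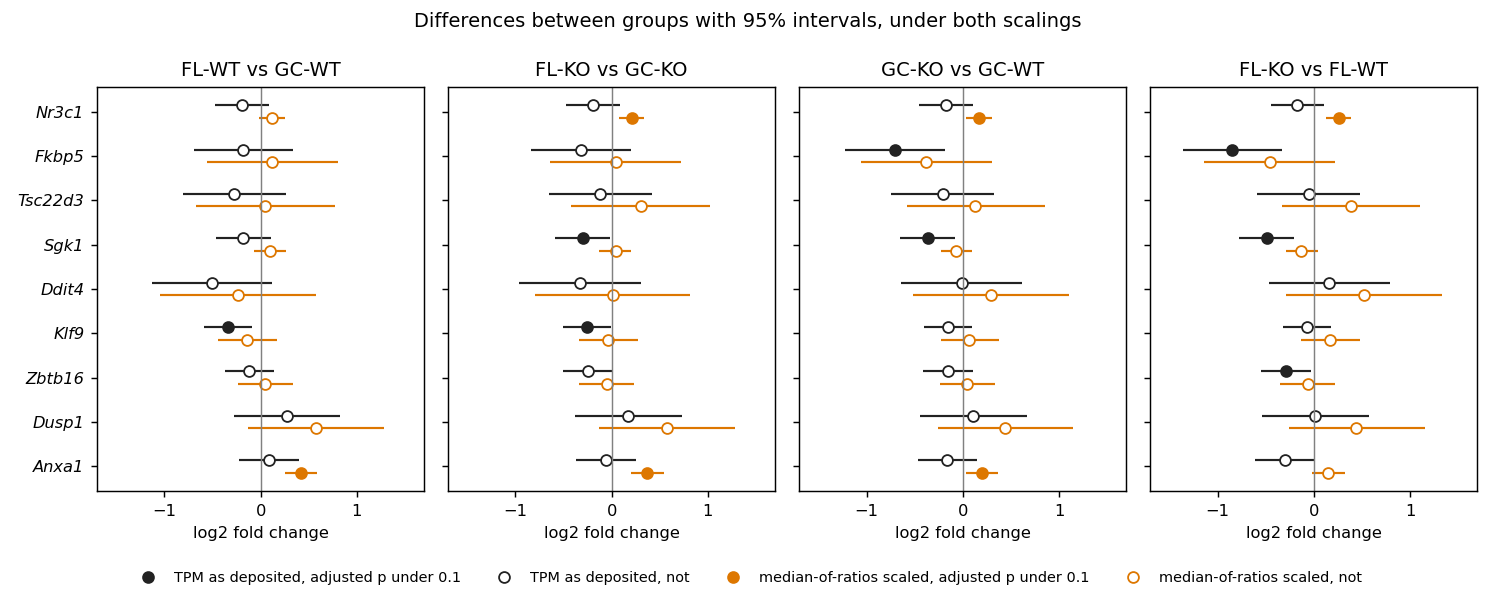
Log2 fold change (horizontal axis) of the 9 genes in the 4 comparisons, with 95% intervals, from TPM as deposited (black) and after median-of-ratios scaling (orange). Filled points have an adjusted p under 0.1. The calls to the left of 0 are black only, for *Klf9*, *Sgk1*, *Fkbp5* and *Zbtb16*, and those to the right are orange only, for *Anxa1* and *Nr3c1*.

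The spread within groups was examined next, since it was wide and not independent from gene to gene. Among the 12 WT mice, after median-of-ratios scaling and with each group's mean removed, *Fkbp5*, *Tsc22d3*, *Ddit4*, *Klf9*, *Zbtb16* and *Dusp1* rose and fell together from mouse to mouse. Pearson's r was 0.94 for *Tsc22d3* and *Ddit4* (Spearman's rho 0.92, exact permutation p = 4.82e-05, adjusted p = 0.00108), 0.92 for *Tsc22d3* and *Dusp1*, 0.92 for *Fkbp5* and *Ddit4*, and 0.90 for *Fkbp5* and *Tsc22d3*. All 36 pairs of the 9 genes were computed. The 15 pairs among those 6 genes had r between 0.66 and 0.94, and all 15 had an adjusted p under 0.1, the largest being 0.047 by the exact permutation test within groups. Spearman's rho was between 0.41 and 0.94, and the adjusted p of rho was 0.122 for *Ddit4* and *Zbtb16* and 0.392 for *Zbtb16* and *Dusp1*, by the same exact test. Without the 2 mice farthest from the median, r stayed between 0.54 and 0.95.

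*Nr3c1*, *Sgk1* and *Anxa1* did not join this set. *Nr3c1*, the receptor itself, had an r of -0.08 with *Tsc22d3*, -0.15 with *Fkbp5* and -0.05 with *Dusp1*. Of the 21 pairs that involve at least 1 of these 3 genes, 2 had an adjusted p under 0.1: *Nr3c1* with *Anxa1* (r = 0.83, rho = 0.80, exact permutation p = 0.00118, adjusted p = 0.00531; r = 0.61 without the 2 farthest mice) and *Sgk1* with *Anxa1* (r = 0.68, rho = 0.56, exact permutation p = 0.0248, adjusted p = 0.0525; adjusted p of rho 0.158). The division of the 9 genes into 6 and 3 was made after these values were seen.

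**Figure D2:**
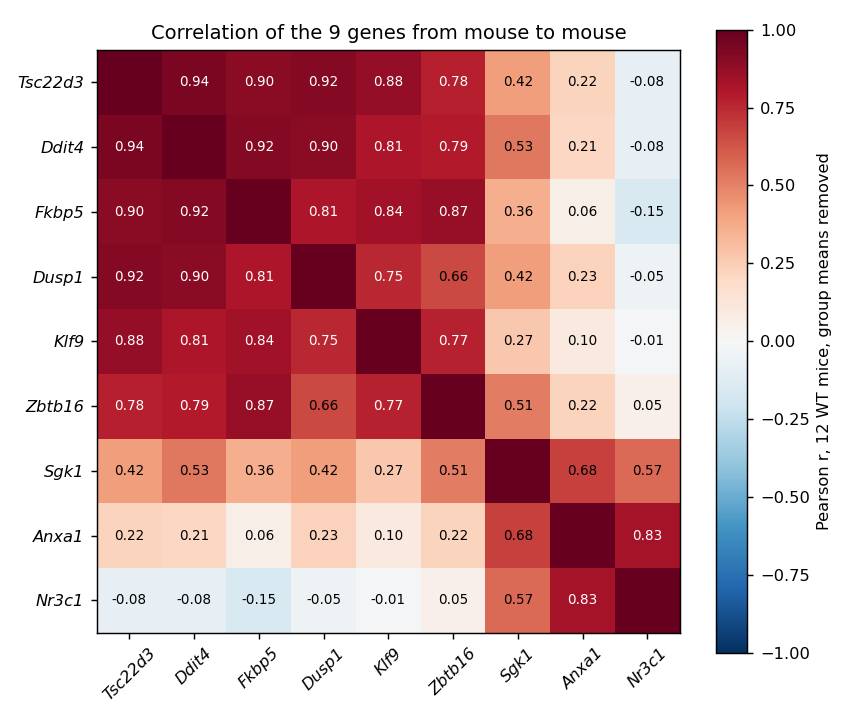
Pearson's r between the 9 genes over the 12 WT mice (6 GC-WT and 6 FL-WT), after median-of-ratios scaling and with each group's mean removed; red is positive and blue negative. The block of 6 genes from *Tsc22d3* to *Zbtb16* holds values from 0.66 to 0.94, and *Anxa1* and *Nr3c1* are joined at 0.83.

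The Nrf2-KO mice fell into 2 sets for the same genes, so no r was tested over all 12 of them. In GC-KO, *Tsc22d3* was at 37.72 to 48.23 TPM in mice 01, 02 and 04 and at 20.03 to 24.64 TPM in mice 09, 11 and 12. In FL-KO it was at 37.77 to 52.66 TPM in the mice numbered 01, 02 and 04 and at 16.11 to 22.51 TPM in those numbered 09, 11 and 12. The same numbers thus held the upper and the lower values on the ground and in flight, although these were different animals. *Fkbp5* showed the division as well, with 6.77 to 9.35 against 4.31 to 5.18 TPM in GC-KO and 6.56 to 7.99 against 2.46 to 3.17 TPM in FL-KO. The *Ddit4* levels were 6.38 to 9.65 against 2.49 to 4.08 TPM in GC-KO, and 6.22 to 8.0 against 1.78 to 2.35 TPM in FL-KO. *Klf9* and *Dusp1* were divided by the same numbers in both groups, *Dusp1* narrowly, since its upper sets began at 12.7 and 15.73 TPM where its lower sets ended at 12.45 and 15.2 TPM. *Zbtb16* overlapped in both groups.

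This direction was rare in the table. Of 12373 genes, 16 (0.129%) were higher in each of mice 01, 02 and 04 than in each of mice 09, 11 and 12 in both Nrf2-KO groups, and 5 of the 9 members were among those 16. The opposite held for 25.4% of genes, among them *Nr3c1* and *Anxa1*. The libraries of mice 01, 02 and 04 had the smaller size factors (0.862 to 0.93 against 1.03 to 1.3 on the ground, 0.622 to 0.724 against 0.789 to 0.878 in flight), so that most genes had a lower TPM in them. After median-of-ratios scaling the shares were 1.44% above and 0.865% below, with the same 5 members above and none below. Since the sets were seen in these values, the counts are a description. The 11 other genes of the 16, named here after their values were seen, were *Per1*, *Il1r2*, *Il7r*, *Nfkbia*, *Hspa8*, *Trem1*, *Pik3ip1*, *Tppp3*, *Ptp4a1*, *E230001N04Rik* and *Igkv4-77*. The first 4 belong to the list of other glucocorticoid-induced genes described later, and *Hspa8* encodes a chaperone that helps to fold the receptor.

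Within each Nrf2-KO set of 6 mice (3 ground and 3 flight, group means removed), the r of *Tsc22d3* was 0.84 in the lower and 0.92 in the upper set with *Ddit4*, 0.98 and 0.69 with *Fkbp5*, and 0.85 and 0.82 with *Klf9*. It was 0.39 and 0.98 with *Dusp1*, and 0.49 and 0.08 with *Zbtb16*, so *Zbtb16* followed *Tsc22d3* least closely within the upper set. With 6 mice a set, these are descriptions.

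Ground and flight mice shared their numbers in the WT groups too (03, 05, 06, 07, 08 and 10). Of the 9 genes, *Fkbp5* had the highest r between equal numbers. On the ground it was 14.75 TPM in mouse 03, 13 in 05, 12.96 in 06, 10.71 in 07, 7.94 in 08 and 6.04 in 10. In flight it was 17.79 TPM in mouse 03, 9.05 in 05, 9.37 in 06, 9.52 in 07, 7.35 in 08 and 5.31 in 10. Mouse 03 was highest and mouse 10 lowest both times. After scaling, the 6 numbers had the same order in both groups (rho 1.0), and r was 0.97 (exact permutation p of r = 0.00139, the smallest that 6 numbers allow; adjusted over 13 relations, p = 0.0181), and r was 0.90 without the 2 farthest. *Zbtb16* had an r of 0.91 (exact permutation p = 0.0111, adjusted p = 0.0662; rho 0.77 with an adjusted p of 0.325). Without the 2 farthest mice it was 0.86. The other relations included *Il1r2* and *Per1*, the 2 of 25 other induced genes that passed with *Tsc22d3* in these same mice, as described later. *Il1r2* had an r of 0.90 (rho 0.89, exact permutation p = 0.0153, adjusted p = 0.0662), and 0.89 without the 2 farthest. *Per1* had an r of 0.84 (rho 0.89, exact permutation p = 0.0486, adjusted p = 0.158). Of the 13 relations, only *Fkbp5*, *Zbtb16* and *Il1r2* had an adjusted p under 0.1 for r. These 3 are not independent, since *Fkbp5* had an r of 0.87 with *Zbtb16* and 0.90 with *Il1r2* over the 12 WT mice. For *Ddit4* r was 0.72, for *Klf9* 0.56, for *Dusp1* 0.55 and for *Tsc22d3* 0.52, and without the 2 farthest mice they were 0.19, 0.97, -0.42 and -0.10. *Nr3c1* (0.22), *Anxa1* (0.24) and *Sgk1* (0.04) showed little likeness between equal numbers. Over 12276 genes the median r between equal numbers was 0.29, and 99.1% of genes had a lower r than *Fkbp5*. What a mouse number marks beyond the animal is not given in the sources used here. The share of TPM in the 5 small RNAs had an r of 0.79 over the same WT numbers (rho 0.71, exact permutation p = 0.0667, adjusted p = 0.173; 0.14 without the 2 farthest), and its part in these values was not tested.

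**Figure D3:**
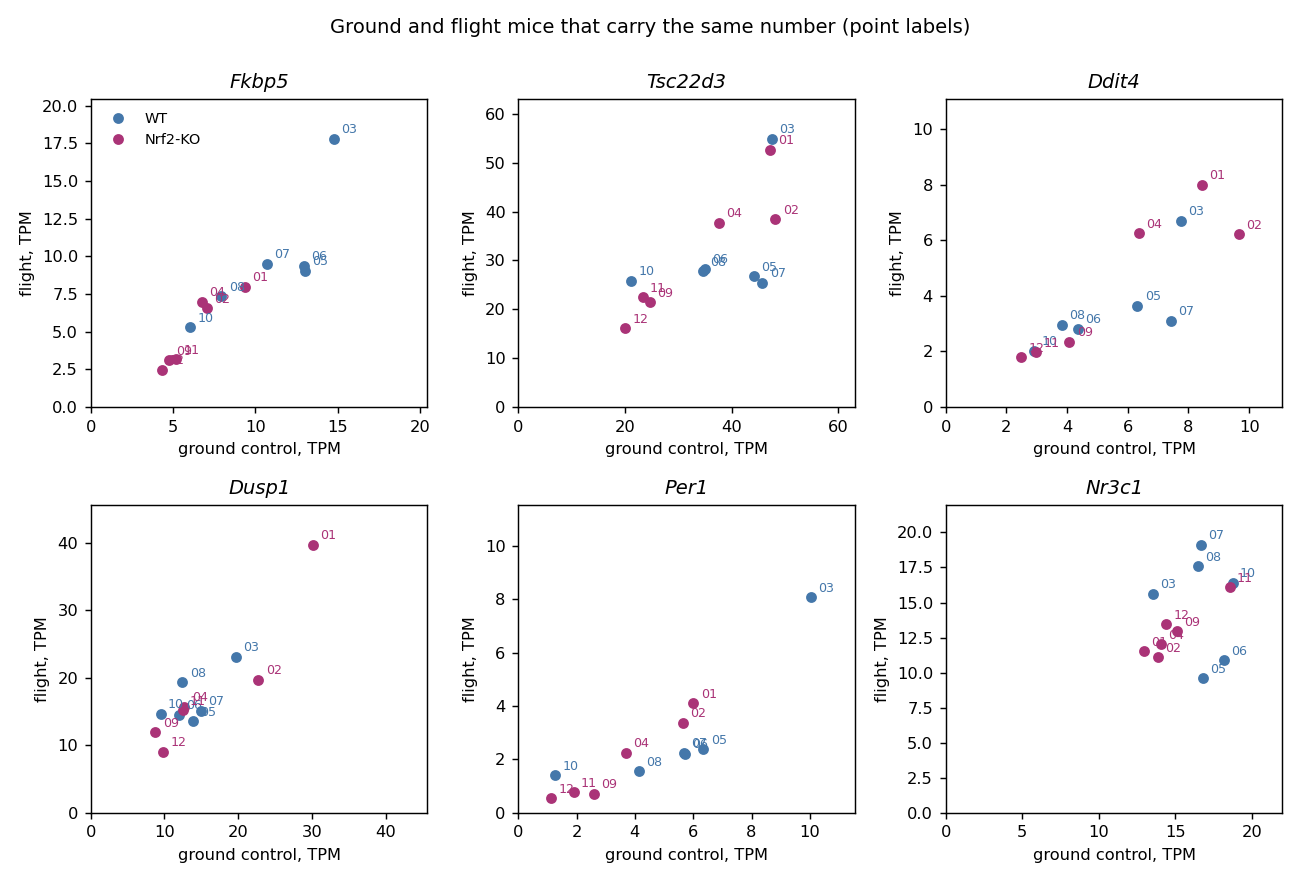
TPM as deposited in the flight mouse (vertical axis) against the ground mouse (horizontal axis) of the same number, for *Fkbp5*, *Tsc22d3*, *Ddit4*, *Dusp1*, *Per1* and *Nr3c1*; blue points are WT, purple points Nrf2-KO, and the label is the mouse number. For *Fkbp5*, *Tsc22d3*, *Ddit4* and *Per1* the Nrf2-KO numbers 01, 02 and 04 lie above 09, 11 and 12 on both axes, and for *Nr3c1* they lie below on both.

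The genes whose scaled, group-centred levels were most like those of *Fkbp5* were named by rule, as the 5 highest Pearson's r over 24 libraries among the 5025 genes that averaged 5 TPM or more. They were *Il1r2* (0.95), *Rdh12* (0.93), *Crispld2* (0.90) and *Sla* (0.90), with *Tsc22d3* itself second at 0.94. For *Tsc22d3* they were *Fkbp5* (0.94), *Trem1* (0.94), *Il1r2* (0.93), *Rdh12* (0.92) and *Dusp1* (0.91). These 24 libraries include the Nrf2-KO mice, which fell into 2 sets for *Fkbp5* and *Tsc22d3*. In the 12 WT mice alone these 9 values lay between 0.80 and 0.94. *Il1r2* encodes the decoy receptor for interleukin-1, and *Trem1* a receptor that amplifies inflammatory signals in neutrophils and monocytes. For *Nr3c1* they included *Fgd4* (0.87), *Trp53inp1* (0.85), *Ankrd22* (0.84) and *Zfp148* (0.84), or 0.86, 0.86, 0.95 and 0.86 in the WT mice alone, none of which was shared with the others. The points share library and scaling, and the r values are a description.

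*Tsc22d3* was then compared over the 12 WT mice with 76 other measures, which were the genes of the 4 lists described later, sums of cell type markers and library properties. *Per1*, a clock gene that the receptor induces directly, had an r of 0.94 (rho 0.97, exact permutation p = 0.000108, adjusted p = 0.00821; 0.88 without the 2 farthest mice). *Per1* was at 1.26 to 10.04 TPM in GC-WT (median 5.71), 1.41 to 8.07 in FL-WT (median 2.23), 1.13 to 6.01 in GC-KO (median 3.13) and 0.54 to 4.1 in FL-KO (median 1.52). The groups overlapped, and its log2 fold change in flight was -0.74 ± 0.37 in WT (adjusted p = 0.123) and -0.64 ± 0.37 in Nrf2-KO mice (limma, adjusted p = 0.152). This depended on leaving mouse numbers out of the fit. With the number as a replicate block, the same fold changes had a limma adjusted p of 0.00124 and 0.00199. Scaled and without the block, they were -0.46 (adjusted p = 0.469) and -0.37 (limma, adjusted p = 0.549). *Il1r2* had an r of 0.86 with *Tsc22d3* (rho 0.85, exact permutation p = 0.00126, adjusted p = 0.0479). The immediate early gene *Fos* had an r of 0.78 (rho 0.79, exact permutation p = 0.00248, adjusted p = 0.0627; 0.76 without the 2 farthest mice). These were the only 3 of the 76 with an adjusted p under 0.1 for r: 2 of 25 other glucocorticoid-induced genes, 1 of 12 immediate early genes, 0 of 8 glucocorticoid-repressed genes and 0 of 19 genes of the receptor complex. *Junb*, another immediate early gene, had an r of 0.73 (exact permutation p = 0.0129, adjusted p = 0.164) and a rho of 0.81 with an adjusted p of 0.0547. None of the 10 sums of cell type markers passed over the 12 mice. The sum of mature neutrophil markers had an r of 0.11 (rho 0.19; 0.54 without the 2 farthest mice). Taken singly, the groups differed in sign, with -0.56 in GC-WT and 0.83 in FL-WT. For promyelocyte markers r was 0.79 in GC-WT and -0.75 in FL-WT, and for stem and progenitor markers 0.69 and -0.72. The part of cell composition in the joint variation was not tested. The share of TPM in the 5 small RNAs had an r of 0.78 with *Tsc22d3* (rho 0.88, exact permutation p = 0.0055, adjusted p = 0.104; adjusted p of rho 0.0278), and its part in the joint variation was not tested. Of 12372 genes, 0.331% had an r with *Tsc22d3* as high as the lowest of the 5 genes that moved with it (0.78), and the middle of the distribution was 0.01. Those 5 were set apart after their r in these mice was seen, so this share is a description. The other members, *Sgk1* (0.42), *Anxa1* (0.22) and *Nr3c1* (-0.08), lay between the 5th and the 95th percentile (-0.51 and 0.51).

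Next, the wider pathway was examined through lists chosen for their roles, with earlier results of these data known. The counts and medians of these lists are therefore a description. Of 21 genes for the receptor's chaperones, hormone-converting enzymes and cofactors, 19 passed the filter. With flight, 10 fell and 1 rose in WT, beside 39.0% lower and 0.994% higher of all genes, and 13 fell in Nrf2-KO mice, beside 53.1%. The higher gene was *Hsd11b1*, which encodes the enzyme that regenerates active hormone from its inert form, with a log2 fold change of 0.38 ± 0.14 in WT (limma, adjusted p = 0.0392). After scaling it was 0.70 in WT (adjusted p = 9.91e-07) and 0.49 in Nrf2-KO mice (limma, adjusted p = 2.57e-05), and the list held 4 lower and 2 higher genes in WT (17.4% and 15.6% of all genes) and 4 of each in Nrf2-KO mice (22.2% and 17.2%). Among its genes averaging 5 TPM or more, the largest falls in flight were in *Smarca4*, the ATPase of a chromatin remodeller (-1.0 ± 0.22 in WT, adjusted p = 0.0024; -1.03 ± 0.22 in Nrf2-KO mice, adjusted p = 0.00121), and in the acetyltransferase genes *Crebbp* (-0.65 and -0.69) and *Ep300* (-0.57 and -0.64). After scaling *Crebbp* was at -0.35 (adjusted p = 0.0928) and -0.37 (adjusted p = 0.0675), and *Ep300* at -0.26 (adjusted p = 0.127) and -0.28 (limma, adjusted p = 0.0964). After removal of the GC content and length trend neither was called, with *Crebbp* at -0.18 in both genotypes and *Ep300* at -0.12 and -0.15 (limma, adjusted p 0.149 to 0.247).

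*Smarca4*, *Crebbp* and *Ep300* were also lower in Nrf2-KO mice than in WT in both settings. In GC-KO vs. GC-WT 15 of 19 genes were lower, beside 42.9% of all genes, and none higher, and the list median of -0.75 was beneath the -0.22 of all genes. In FL-KO vs. FL-WT the count was 15 as well, beside 47.2%, with a median of -0.78 against -0.25. *Smarca4* was lower by 1.24 on the ground and 1.27 in flight in log2 units (-1.24 ± 0.22 and -1.27 ± 0.22; limma, adjusted p = 0.000416 and 4.86e-05), and *Crebbp* was at -1.17 and -1.21. *Ncoa3*, a receptor coactivator, was at -1.0 ± 0.21 on the ground (limma, adjusted p = 0.00086) and *Ep300* at -1.07 ± 0.19 in flight (limma, adjusted p = 6.62e-05). After scaling 13 of 19 were still lower in each setting, *Smarca4* at -0.91 and -0.90, beside 28.0% and 30.7% of all genes lower. The genes called higher numbered 2 on the ground and 4 in flight, beside 29.7% and 36.0% of all genes. After removal of the GC content and length trend, 12 were lower and 1 higher on the ground, and 13 and 1 in flight. The list medians were then -0.26 and -0.24, beside 0.02 and 0.03 for all genes. *Smarca4* was then at -0.51 and -0.39 and *Crebbp* at -0.50 in both, all still called (limma, adjusted p 0.000195 to 0.00308).

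Of 28 other glucocorticoid-induced genes 25 passed the filter. In flight, 9 were lower and 1 higher in WT, beside 39.0% and 0.994% of all genes. In Nrf2-KO mice 10 were lower and 1 higher, beside 53.1% and 0.299%. The list medians were -0.19 and -0.23 against -0.24 and -0.29 for all genes. *Il7r*, the interleukin-7 receptor of lymphocyte precursors, was at -0.78 ± 0.14 in WT (adjusted p = 0.000403) and -0.43 ± 0.14 in Nrf2-KO mice (limma, adjusted p = 0.0185). After scaling it was still called in WT (-0.5, adjusted p = 0.0266) but not in Nrf2-KO mice (-0.08, limma, adjusted p = 0.721). After removal of the GC content and length trend it was at -0.55 in WT (adjusted p = 0.00749) and -0.19 in Nrf2-KO mice (limma, adjusted p = 0.34). B lineage marker sums were 176 to 257 TPM in GC-WT and 90.8 to 226 TPM in FL-WT, and their part in the *Il7r* difference was not tested. *Pik3r1*, a regulatory subunit of PI3 kinase, was at -0.76 ± 0.14 and -0.63 ± 0.14 (limma, adjusted p = 0.000621 and 0.00181), the chemokine receptor gene *Cxcr4* at -0.32 ± 0.14 in WT (limma, adjusted p = 0.0875; 0.01 after scaling, adjusted p = 0.961, and -0.14 after removal of the GC content and length trend, adjusted p = 0.409) and the repressor gene *Bcl6* at -0.64 ± 0.21 in Nrf2-KO mice (limma, adjusted p = 0.0181). For flight in Nrf2-KO mice *Bcl6* was at -0.33 after scaling (adjusted p = 0.0879) and at -0.26 after removal of the GC content and length trend (limma, adjusted p = 0.152). As deposited, the higher genes were *Cebpd*, a transcription factor of myeloid cells, in WT (0.32, adjusted p = 0.0753) and the metallothionein gene *Mt2* in Nrf2-KO mice (0.40, limma, adjusted p = 0.0797). After scaling, 6 were lower and 4 higher in each genotype, beside 17.4% and 15.6% of all genes in WT and 22.2% and 17.2% in Nrf2-KO mice. Against WT, 13 of the 25 were lower and none higher in Nrf2-KO mice in both settings, beside 42.9% and 47.2% of all genes lower. After scaling 9 were lower and 3 higher on the ground, beside 28.0% and 29.7% of all genes. In flight they numbered 8 and 3 after scaling, beside 30.7% and 36.0%. As deposited, *Bcl6* was at -1.18 ± 0.21 on the ground and -1.42 ± 0.21 in flight (limma, adjusted p = 0.000411 and 6.3e-06). *Lcn2*, a neutrophil granule gene, was at -0.82 ± 0.18 and -1.13 ± 0.18 (limma, adjusted p = 0.000964 and 1.19e-05). The mRNA-decay factor *Zfp36* was at -0.82 ± 0.20 on the ground (limma, adjusted p = 0.00227) and *Cebpb*, a transcription factor of emergency granulopoiesis, at -1.25 ± 0.27 in flight (limma, adjusted p = 0.000398).

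Of 13 inflammatory genes that glucocorticoids repress, 8 passed the filter. With flight none fell and 1 rose in WT mice, whereas 2 fell and 1 rose in Nrf2-KO mice, beside 39.0% and 53.1% of all genes lower and 0.994% and 0.299% higher. The higher gene each time was the chemokine gene *Cxcl2*, which lies under the level asked of named genes and is named after its value was seen (0.51 ± 0.17 and 0.48 ± 0.17; limma, adjusted p = 0.0285 and 0.0287). *Mmp9*, a neutrophil gelatinase, was at -1.17 ± 0.33 for flight in Nrf2-KO mice, and for genotype at -1.92 ± 0.33 on the ground and -2.85 ± 0.33 in flight (limma, adjusted p = 0.00821, 0.000411 and 8.54e-07). *Il1b* was higher in GC-KO by 0.60 ± 0.24 (limma, adjusted p = 0.0456) and *Tnf* lower in FL-KO than in FL-WT (-0.46 ± 0.17, limma, adjusted p = 0.0293). Against WT, 2 were lower and 1 higher on the ground and 3 lower in flight (42.9% and 47.2% of all genes lower, 3.13% higher on the ground). After scaling 2 were lower and 2 higher on the ground, beside 28.0% and 29.7% of all genes. In flight 2 were lower and 3 higher, beside 30.7% and 36.0%.

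Of 14 immediate early genes, which any handling of cells can induce within minutes, 12 passed the filter. In WT flight mice 2 were lower and 1 higher, beside 39.0% and 0.994% of all genes. In Nrf2-KO flight mice 5 were lower, beside 53.1%. *Fos* was higher by 0.65 ± 0.30 in FL-WT (limma, adjusted p = 0.0987), and after scaling by 0.90 in WT (adjusted p = 0.061) and 0.91 in Nrf2-KO mice (limma, adjusted p = 0.0498). *Btg2* was lower in flight at -0.67 ± 0.14 and -0.65 ± 0.14 (limma, adjusted p = 0.00107 and 0.000889), and *Klf2* at -0.67 ± 0.22 in Nrf2-KO mice (limma, adjusted p = 0.0189). The *Klf2* call was not made after scaling (-0.27, adjusted p = 0.202) or after removal of the GC content and length trend (-0.24, limma, adjusted p = 0.227). Against WT, 5 were lower on the ground and 6 in flight, beside 42.9% and 47.2% of all genes, with *Klf2* at -1.07 and -1.41, *Ier2* at -0.51 and -0.88, and *Junb* at -0.62 in flight. After scaling the immediate early genes called lower and higher numbered 1 and 4 in FL-WT, beside 17.4% and 15.6% of all genes. In FL-KO they numbered 2 and 3, beside 22.2% and 17.2%. Against WT they numbered 3 and 2 on the ground, beside 28.0% and 29.7%, and 5 and 2 in flight, beside 30.7% and 36.0%. None of the 4 lists had a gene called in the interaction of flight and genotype.

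Promoters were examined as a description of where the receptor's palindromic element can lie close to a start site. RefSeq promoters of build GRCm38.p6, each 250 bases before to 50 after a start, were on hand for 7 of the 9 genes, with 14 starts in all; *Nr3c1* and *Zbtb16* had none. The core of the element, ACA and TGT set apart by any 3 bases and the same on both strands, was found in 2 of the 14, both starts of *Sgk1*, and in 6.85% of all 32851 promoters. A longer form that contains the core, GNACA and TGTNC set apart by any 3 bases (N is any base), was found in 1 of the 14 and in 0.475% of all. That promoter is shown with the core in capitals, beside those of *Fkbp5* and *Ddit4*, 2 of the genes that moved with *Tsc22d3*, whose windows do not hold these letters. No match says only that the letters are not in these 300 bases.
Sgk1, chr10:21993640-21993939, plus strand: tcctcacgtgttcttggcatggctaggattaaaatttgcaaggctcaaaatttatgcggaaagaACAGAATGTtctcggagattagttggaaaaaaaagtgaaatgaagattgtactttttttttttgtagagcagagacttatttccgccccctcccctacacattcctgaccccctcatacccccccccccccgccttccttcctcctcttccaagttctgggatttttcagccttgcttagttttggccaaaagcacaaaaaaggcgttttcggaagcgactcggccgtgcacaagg
Fkbp5, chr17:28486100-28486399, minus strand: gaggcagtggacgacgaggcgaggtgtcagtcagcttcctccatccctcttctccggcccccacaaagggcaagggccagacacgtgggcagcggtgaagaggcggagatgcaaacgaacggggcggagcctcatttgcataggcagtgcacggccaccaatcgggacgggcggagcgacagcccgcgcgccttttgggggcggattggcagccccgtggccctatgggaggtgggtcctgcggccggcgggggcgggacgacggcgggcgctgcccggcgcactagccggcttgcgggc
Ddit4, chr10:59951721-59952020, minus strand: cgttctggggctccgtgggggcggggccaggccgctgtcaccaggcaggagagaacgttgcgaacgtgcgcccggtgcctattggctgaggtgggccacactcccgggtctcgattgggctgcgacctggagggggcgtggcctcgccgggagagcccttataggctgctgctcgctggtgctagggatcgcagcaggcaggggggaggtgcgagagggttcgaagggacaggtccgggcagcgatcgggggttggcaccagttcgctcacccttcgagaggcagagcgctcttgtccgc
The core in the *Sgk1* promoter begins 186 bases before that start. *Sgk1* was outside the set of 6 genes that varied together, with an r of 0.42 with *Tsc22d3* in the 12 WT mice (exact permutation p = 0.207, adjusted p = 0.339).

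In the GENCODE M21 annotation of the mouse genome build mm10, the build to which the reads were aligned, the members lie on 6 chromosomes. *Fkbp5* (ENSMUSG00000024222.17, chromosome 17, 28399094 to 28517527, minus strand) and *Dusp1* (ENSMUSG00000024190.6, chromosome 17, 26505590 to 26562128, minus strand) share a chromosome. *Tsc22d3* (ENSMUSG00000031431.13) lies on chromosome X from 140539528 to 140600659 on the minus strand, and *Ddit4* (ENSMUSG00000020108.4) on chromosome 10 from 59949669 to 59951834 on the minus strand. *Klf9* (ENSMUSG00000033863.1, chromosome 19, 23141226 to 23168134, plus strand) and *Zbtb16* (ENSMUSG00000066687.5, chromosome 9, 48654297 to 48836222, minus strand) complete the set that varied together. *Sgk1* (ENSMUSG00000019970.15) spans 21882184 to 21999903 on the plus strand of chromosome 10 and *Anxa1* (ENSMUSG00000024659.14) spans 20373428 to 20390944 on the minus strand of chromosome 19. *Nr3c1* (ENSMUSG00000024431.14) is on chromosome 18, from 39410545 to 39519421 on the minus strand. All values are sums over each gene's transcripts. *Dusp1* overlaps *Ergic1* on the other strand (mean 3.42 TPM), and 2 non-coding genes within *Fkbp5* on its own strand averaged 0.425 and 0.708 TPM, so a small part of either level is uncertain.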

How the data were processed

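RNA of total bone marrow cells, frozen before extraction, was sequenced from 24 mice, 6 per group, with a strand-specific kit. The deposited values are TPM per gene, which the authors obtained with STAR 2.6.1 and RSEM 1.3.1 on mm10; whether RSEM used the strand is not given in the sources used here. No counts and no depth are known, so no counting intervals are given, and precision is that of the spread between mice. Identifiers were paired with symbols through GENCODE M21 after removing versions (54723 of 54752 matched). Every column of the table belongs to a mouse, and the 9 genes and all lists were chosen with earlier results of these data known.

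Genes above 1 TPM in at least 1 library were tested with limma 3.58.1 in R 4.3.3 on log2(TPM + 1), with 1 mean per group, all 24 libraries sharing the estimate of spread. A gene was called at a Benjamini-Hochberg adjusted p under 0.1. Fold changes on this scale understate changes of low genes such as *Klf9*. Median-of-ratios size factors came from genes averaging 1 TPM or more. Correlations over 12 WT mice used scaled values with group means removed, and exact permutation within groups (518400 arrangements). The other named genes were, per comparison and list, the 3 with the largest absolute log2 fold change among called genes averaging 5 TPM or more. Each mouse is a separate animal. One gene that the likeness rule names is not reported here.

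In data simulated for FL-WT vs. GC-WT on 12373 genes, limma recovered 99% of 200 genes changed by 1.5 (log2) and called 18 unchanged ones. Only this size of change was simulated. As deposited, the largest absolute log2 fold change among the genes described here was that of *Fkbp5* in FL-KO vs. FL-WT (-0.85). How often changes of that size are found or missed, and how calls depend on scaling, cannot be read from this simulation. Alternatives were a pseudocount of 0.1, no filter, a filter of 6 libraries, 3 other scalings, limma with a trend, the compared groups alone, an adjusted p of 0.05, the mouse number as a replicate block, removal of each library's trend with GC content and transcript length (known for 12370 of 12373 genes), and leaving out each library. The replicate block combined with scaling, the correlations as deposited and the list counts under each setting were added after the data were seen.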

Additional observations from a re-analysis of the deposited data

Results flagged for a closer look

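Among the 36 sets of 6 mice formed by 9 genes and 4 groups, 4 held a mouse that lay apart from the other 5 by Dixon's criterion, under which about 1 in 20 is set apart by chance. In FL-WT, mouse 03 was at 17.79 TPM for *Fkbp5*, 54.9 TPM for *Tsc22d3* and 6.7 TPM for *Ddit4*, above the next mouse at 9.52, 28.33 and 3.64 TPM. In FL-KO, mouse 01 was at 39.69 TPM for *Dusp1*, above the next at 19.72 TPM. The mice that carry these numbers on the ground were the highest of their groups for the same genes (14.75, 47.6 and 7.74 TPM in GC-WT mouse 03 and 30.12 TPM in GC-KO mouse 01). Without FL-WT mouse 03, limma gave none of the 3 genes an adjusted p under 0.1 in FL-WT vs. GC-WT, as with it (0.275 for *Fkbp5*, 0.198 for *Tsc22d3* and 0.113 for *Ddit4*).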

How the results depend on the processing

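The number of the 9 genes called lower as deposited was 1 for flight in WT, 2 for flight in Nrf2-KO mice, 2 for genotype on the ground and 3 for genotype in flight (the order used here), and it depended on the scaling between libraries. It was 0 in all 4 comparisons after median-of-ratios scaling and after quantile normalization. It was 0 in the first 3 without a filter and after removal of the GC content and length trend. Without the 5 small RNAs it was 2, 0 and 4 in the first 3, and at an adjusted p of 0.05 it was 0 in the second comparison. The number called higher, 0 as deposited, was 1, 2, 2 and 1 after median-of-ratios scaling. After quantile normalization it was 1 in each comparison but the first, and after removal of the GC content and length trend 1 in each but the second. Without each library in turn, the genes called lower numbered 1 to 2, 0 to 3, 2 to 2 and 2 to 5 in the 4 comparisons, and those called higher stayed at 0.

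The log2 fold change of *Nr3c1* changed sign to 0.21, 0.17 and 0.26 in the last 3 comparisons after median-of-ratios scaling and to 0.19, 0.16 and 0.27 after quantile normalization. In FL-KO vs. GC-KO, *Sgk1* went to 0.04 and 0.09 under these, *Klf9* to 0.03 after quantile normalization and 0.07 after removal of the GC content and length trend, and *Anxa1* to 0.37 after median-of-ratios scaling (0.20 in GC-KO vs. GC-WT). *Zbtb16* went to 0.45 on the ground and 0.44 in flight between genotypes after removal of the GC content and length trend. The cause was not tested.

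By the deviations of all genes as deposited, equal numbers had r from -0.026 to 0.273, with the own number best in 3 of 12. The main fit did not pair by number. Some order by number was shared, since 25.4% of genes were lower in mice 01, 02 and 04 in both Nrf2-KO groups. In WT mice the median r of single genes between equal numbers was 0.29 after scaling. With the number as a replicate block, 3 genes fell with flight in WT (*Klf9*, *Ddit4* with limma adjusted p = 0.00338, *Tsc22d3* with 0.0988) and 1 rose (*Dusp1*, 0.0584), and 5 fell in Nrf2-KO mice (*Klf9*, *Sgk1*, *Ddit4* with 0.0235, *Fkbp5* with 0.0255, *Zbtb16* with 0.0709). With the block and median-of-ratios scaling, a setting chosen after seeing the data, none was lower and 2 (*Dusp1*, *Anxa1*) and 3 (these and *Nr3c1*) were higher, with *Nr3c1* at 0.21, *Sgk1* at 0.04 and *Anxa1* at 0.37 in FL-KO vs. GC-KO. The genotypes share no number, so no block was possible between them.

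Of single-gene calls, *Sgk1* in FL-KO vs. GC-KO was lost without GC-KO 11 or 12 or FL-KO 01, 02, 04 or 09 (adjusted p 0.0369 to 0.19 over all 24 omissions), and *Klf9* there without GC-KO 01, 02, 04 or 09 or FL-KO 04, 09, 11 or 12 (0.0509 to 0.161). *Zbtb16* in FL-KO vs. FL-WT was lost without FL-WT 03 or 07 or FL-KO 09 or 12 (0.0263 to 0.215). The *Fkbp5* and *Sgk1* calls between genotypes and the *Klf9* call in WT were made without each library in turn. Over the planned and added settings that leave out no library, the fold changes of single genes kept direction and call in 365 cases, gained a call in 18, lost one in 30 and changed sign in 17. As deposited, the r of *Tsc22d3* in WT mice was 0.70 to 0.92 with the 5 genes that moved with it and 0.20 with *Sgk1*. After removal of the GC content and length trend, the receptor's cofactors numbered 2 lower and 3 higher with flight in WT and 1 and 2 in Nrf2-KO mice. The list medians were then -0.06 and 0.0, beside 0.01 for all genes in both.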
